A study of Mus musculus with 35 samples.

Results

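Compact myelin and sheath proteins are described here through the 9 genes of that group on the panel, Mbp, Mobp, Pllp, Cldn11, Mog, Mag, Cnp, Opalin and Ermn, taken by name from the 760 genes measured. All 9 were found, and all entered the tests, since no filter on level was used. Total RNA came from the hippocampus of 35 mice, 17 males and 18 females, all labelled as strain C57BL6/J and all aged 18 months. The NanoString nCounter, which counts coloured barcodes hybridised to RNA without amplification, was used with its mouse Alzheimer disease panel. The study asked what long treatment with Urolithin A, a gut microbial product of dietary ellagitannins, does in 2 Alzheimer disease models. Values are log2 normalized counts of barcodes, and differences are log2 differences unless a fold is named. Each gene has its own probe, so levels were compared between mice and not between genes.

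The ADP_UA group (6 mice, 2 males and 4 females) and the ADP_Veh group (7 mice, 4 males and 3 females) carried the alleles of the 3xTgAD model, among them Tg(APPSwe,tauP301)L1Lfa, and were heterozygous for Polbtm1Rsky, which removes 1 working copy of the gene of DNA polymerase beta, an enzyme of base excision repair (3xTgAD/PolB +/-). The AD_UA group (7 mice, 4 males and 3 females) and the AD_Veh group (8 mice, 4 males and 4 females) carried the same 3xTgAD alleles with intact Polb. The WT_Veh group held 7 wild-type mice, 3 males and 4 females. UA stands for Urolithin A at 200 mg/kg per day and Veh for vehicle, each for 5 months, with Urolithin A given by oral gavage. No wild-type mouse received Urolithin A, so its effect could be measured in transgenic mice alone. In this model the human APP and tau transgenes are driven by a promoter active in neurons (Thy1). Mice are numbered as in the labels, and the numbers have gaps.

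Myelin is the membrane that oligodendrocytes wrap around axons in the central nervous system. Its layers are fused into compact myelin by proteins on the inner face of the membrane, while thin channels of cytoplasm at the rims and beside the axon stay open. In compact myelin Mbp, myelin basic protein, zips the cytoplasmic faces together, Mobp is a smaller basic protein of the same layer, and Pllp, plasmolipin, is a membrane-spanning proteolipid. Cldn11 forms the tight junctions between the turns of the sheath. Mog is exposed on the outermost surface, and Mag sits on the innermost surface, facing the axon. Cnp keeps the cytoplasmic channels open, Opalin is a glycoprotein of the paranodal loops and the oligodendrocyte membrane, and Ermn, ermin, is a cytoskeletal protein of late oligodendrocyte differentiation. In adult brain all 9 are transcribed mainly by mature oligodendrocytes, under transcription factors that include SOX10 and MYRF.

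In the mouse assembly GRCm38.p6 (RefSeq) the genes are scattered over the genome, with Mobp at chr9:120149742-120181488, Mag at chr7:30899175-30914922, Mog at chr17:37010740-37023398, Cnp at chr11:100574909-100591875, Cldn11 at chr3:31149920-31164326, Opalin at chr19:41061959-41077113 and Ermn at chr2:58045115-58052864. The sequence before the annotated gene start is given for 4 of them, picked for holding either the MYRF motif or the most SOX motifs of the members. Capitals mark matches, on either strand, to ACAANG, a core motif of SOX factors, or to CTGGNAC, a motif of MYRF. Each sequence runs 5′ to 3′ on the strand of its gene and ends at the base before the gene start.
Mobp, chr9:120149492-120149741, plus strand: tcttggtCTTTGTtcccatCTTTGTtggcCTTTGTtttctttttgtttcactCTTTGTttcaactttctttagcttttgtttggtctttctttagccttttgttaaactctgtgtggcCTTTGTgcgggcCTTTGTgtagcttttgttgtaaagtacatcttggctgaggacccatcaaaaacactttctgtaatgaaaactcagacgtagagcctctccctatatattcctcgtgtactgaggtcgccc
Mag, chr7:30914923-30915172, minus strand: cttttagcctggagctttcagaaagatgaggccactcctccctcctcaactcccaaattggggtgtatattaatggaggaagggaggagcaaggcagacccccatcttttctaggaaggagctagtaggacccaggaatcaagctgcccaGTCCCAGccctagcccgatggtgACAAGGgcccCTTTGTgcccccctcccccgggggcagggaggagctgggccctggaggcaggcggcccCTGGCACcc
Mog, chr17:37023399-37023648, minus strand: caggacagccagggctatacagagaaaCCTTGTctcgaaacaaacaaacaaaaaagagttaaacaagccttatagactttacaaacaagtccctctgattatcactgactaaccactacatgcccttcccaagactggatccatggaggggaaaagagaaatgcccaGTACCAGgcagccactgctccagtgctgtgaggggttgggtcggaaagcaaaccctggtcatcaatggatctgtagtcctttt
Cnp, chr11:100574689-100574908, plus strand: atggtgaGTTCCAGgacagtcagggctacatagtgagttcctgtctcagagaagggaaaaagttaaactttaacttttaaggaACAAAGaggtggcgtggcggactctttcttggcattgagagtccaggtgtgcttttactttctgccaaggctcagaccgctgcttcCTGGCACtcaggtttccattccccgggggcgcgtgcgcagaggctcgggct
Of the 9 members 8 had such a sequence (250 bases, 220 for Cnp), and Mbp had none. ACAANG matched at least once in 6 of the 8 (6 times in Mobp, 2 times in Mag and Ermn, once in Mog, Cnp and Opalin, 0 times in Cldn11 and Pllp). It also matched in 36.6% of the 27025 promoters of the table and in 27.6% of the 594 from panel genes. For these shares and those below, the first listed promoter of each gene was used, with its first 250 bases. These were not cut at the gene start. The members' sequences were cut there and chosen for the most bases before it, so the 2 sets were defined differently. The 6 matches in Mobp are the most found in any of the 27025, of which 0.0518% held 5 or more. CTGGNAC matched in 3 of the 8 (2 times each in Mag and Cnp, once in Mog), against 16% of all promoters and 14.8% of panel promoters. No match overlapped another. A match describes letters and not a bound site. Cldn11 and Pllp held neither motif and still moved with the other members across mice, and a link between motifs and levels was not tested.

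Across the 35 mice the levels of these genes differed widely. Mbp ran from 10.67 in WT_Veh 6 to 14.20 in AD_Veh 2, an 11.6-fold range. The range was 13.7-fold for Mag, 12.6-fold for Opalin, 10.9-fold for Cldn11, 10.3-fold for Mobp, 9.51-fold for Ermn, 9.19-fold for Mog, 7.16-fold for Cnp and 6.45-fold for Pllp. AD_Veh 2 had the highest value of all 9 genes and ADP_UA 5 the second highest of all 9. At the other end WT_Veh 6 had the lowest value of 7, and WT_Veh 1, WT_Veh 2 and WT_Veh 6 were among the 5 lowest mice for all 9. The WT_Veh group was therefore itself spread out, with WT_Veh 8 and WT_Veh 5 averaging 11.11 and 10.83 over the 9 genes and WT_Veh 6 averaging 8.82. The median of all 760 genes moved far less, between 8.60 in AD_UA 3 and 9.12 in AD_Veh 2, and in the same 3 low WT_Veh mice it stood at 8.64, 8.65 and 8.67 (WT_Veh 1, 2 and 6).

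**Figure D1:**
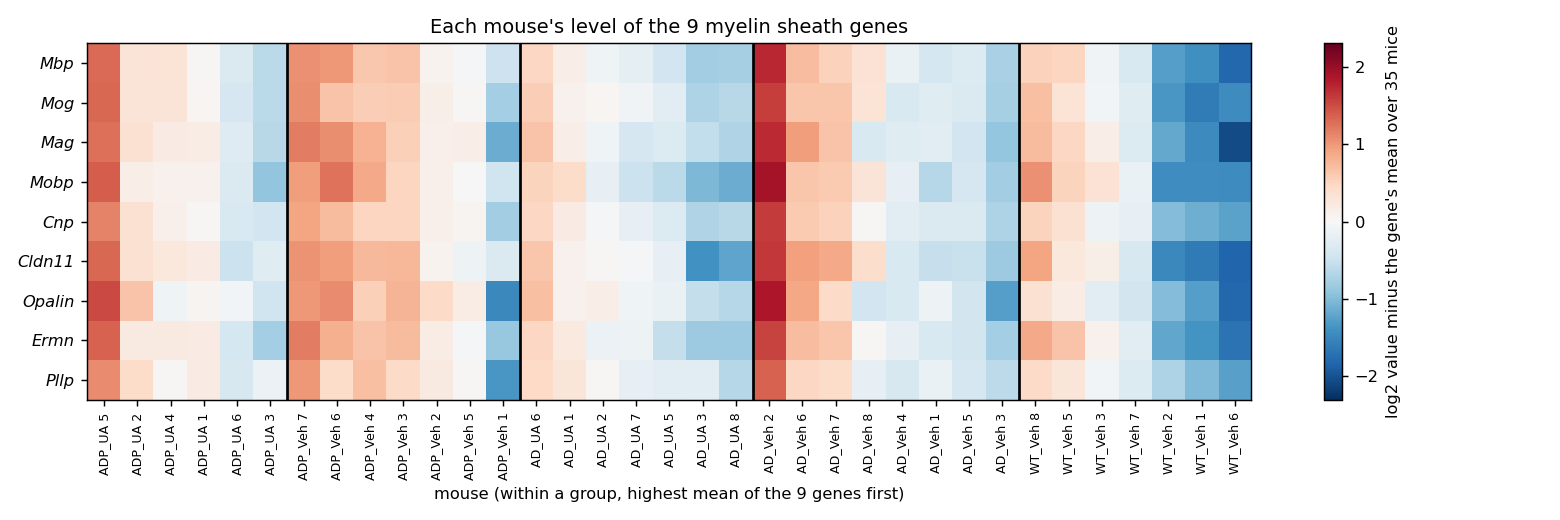
Heat map of the 9 genes (down) in the 35 mice (across), grouped as ADP_UA, ADP_Veh, AD_UA, AD_Veh and WT_Veh and ordered in each group by the mean of the 9 genes; colour is the log2 value minus the mean of that gene over all mice. Columns are nearly uniform in colour, with AD_Veh 2 highest in every gene and WT_Veh 1, 2 and 6 low in every gene.

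A set of 4 mice stood apart in another way. Adora2a, the adenosine A2a receptor gene, which is abundant in striatum and low in hippocampus, was 6.07 in ADP_UA 6, 8.60 and 7.13 in AD_UA 3 and AD_UA 8, and 9.85 in AD_Veh 2, and at most 4.79 in every other mouse. Pde1b, also high in striatum, was 9.07, 10.24, 9.73 and 11.27 in the same 4 mice in that order. In the other mice it was at most 8.98 (WT_Veh 6), so ADP_UA 6 barely stood apart in Pde1b. Of the 14 striatal markers listed these 2 were measured, and the summed level of the pair reached 9.24 in ADP_UA, 8.78 in ADP_Veh, 10.64 in AD_UA, 11.73 in AD_Veh and 9.02 in WT_Veh mice at the highest. AD_Veh 2 was the mouse with the most myelin RNA, while AD_UA 8 and AD_UA 3 had the lowest and second lowest mean of the 9 genes in their group (9.63 and 9.68). For the 9 genes, each comparison below is therefore also given without these 4 mice, which were picked once their values were known. Differences in other oligodendrocyte genes and in markers of other cell types are given with all mice only. Of the oligodendrocyte precursor, choroid plexus and blood, and hippocampal neuron markers listed, 0 were on the panel, so the labelled region could not be checked with them. The 8 general neuronal genes measured (Snap25, Syt1, Syp, Stmn2, Eno2, Syn2, Stx1a and Snap91) do not tell 1 brain region from another. They had values in every mouse, as had every gene, since no value in the table was at 0 (the lowest was 0.98).

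Within the compact layers, Mbp had its lowest, median and highest values at 11.85, 12.64 and 13.78 in ADP_UA mice and at 12, 13.09 and 13.52 in ADP_Veh mice. The same 3 values were 11.66, 12.25 and 12.95 in AD_UA mice and 11.73, 12.56 and 14.20 in AD_Veh mice, against 10.67, 12.12 and 13.00 in WT_Veh mice. Every pair of groups overlapped, although 4 of 7 ADP_Veh mice and 2 of 8 AD_Veh mice were above every WT_Veh mouse. Mobp spanned (lowest, median, highest) 10.94, 11.94 and 13.24 in ADP_UA, 11.38, 12.33 and 13.09 in ADP_Veh, 10.71, 11.35 and 12.36 in AD_UA, 11.05, 11.90 and 13.75 in AD_Veh and 10.39, 11.70 and 12.89 in WT_Veh mice. Its highest WT_Veh mouse lay above 6 of 7 ADP_Veh mice and 7 of 8 AD_Veh mice, so vehicle groups overlapped along most of their range. Pllp spanned 7.28, 7.75 and 8.73 in ADP_UA, 6.31, 8.06 and 8.64 in ADP_Veh, 6.99, 7.46 and 8.10 in AD_UA, 7.05, 7.47 and 9.0 in AD_Veh and 6.40, 7.33 and 8.09 in WT_Veh mice. The lowest Pllp value of all belonged to ADP_Veh 1 and not to a WT_Veh mouse.

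The tight junction gene Cldn11 spanned (lowest, median, highest) 10.62, 11.33 and 12.44 in ADP_UA, 10.77, 11.85 and 12.15 in ADP_Veh, 9.71, 11.06 and 11.74 in AD_UA, 10.28, 11.14 and 12.74 in AD_Veh and 9.29, 10.74 and 12.02 in WT_Veh mice. All 7 ADP_Veh mice were above the WT_Veh mean of 10.54, yet the highest WT_Veh mouse lay above 5 of them. Mog, on the outer surface, spanned 8.97, 9.76 and 10.91 in ADP_UA, 8.80, 10.16 and 10.65 in ADP_Veh, 8.88, 9.51 and 10.16 in AD_UA, 8.82, 9.61 and 11.18 in AD_Veh and 7.98, 9.31 and 10.28 in WT_Veh mice. Mag, facing the axon, spanned 9.08, 9.90 and 10.99 in ADP_UA, 8.58, 10.27 and 10.90 in ADP_Veh, 9.02, 9.41 and 10.38 in AD_UA, 8.83, 9.44 and 11.44 in AD_Veh and 7.66, 9.41 and 10.44 in WT_Veh mice. For both surface proteins 6 of 7 ADP_Veh mice and 7 of 8 AD_Veh mice were above the WT_Veh mean, and the ranges overlapped.

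Cnp, of the cytoplasmic channels, spanned (lowest, median, highest) 11.31, 11.82 and 12.88 in ADP_UA, 10.95, 12.24 and 12.65 in ADP_Veh, 11.06, 11.55 and 12.22 in AD_UA, 11.03, 11.65 and 13.35 in AD_Veh and 10.51, 11.55 and 12.25 in WT_Veh mice. Opalin, of the paranodal loops, spanned 9.01, 9.47 and 10.98 in ADP_UA, 7.99, 10.01 and 10.55 in ADP_Veh, 8.81, 9.36 and 10.16 in AD_UA, 8.20, 9.23 and 11.32 in AD_Veh and 7.66, 9.04 and 9.81 in WT_Veh mice. With 5 of 7 ADP_Veh mice above every WT_Veh mouse, Opalin had more such mice than any other of the 9 genes, but ADP_Veh 1 at 7.99 lay below 6 of the 7 WT_Veh mice. Ermn spanned 9.57, 10.56 and 11.71 in ADP_UA, 9.48, 11.02 and 11.54 in ADP_Veh, 9.52, 10.23 and 10.84 in AD_UA, 9.57, 10.28 and 11.91 in AD_Veh and 8.66, 10.10 and 11.23 in WT_Veh mice. The order of group means was ADP_Veh, AD_Veh, ADP_UA, AD_UA, WT_Veh for Mbp, Mog, Mobp, Cnp and Ermn, with Cnp AD_Veh and ADP_UA means equal to 2 decimals.

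**Figure D2:**
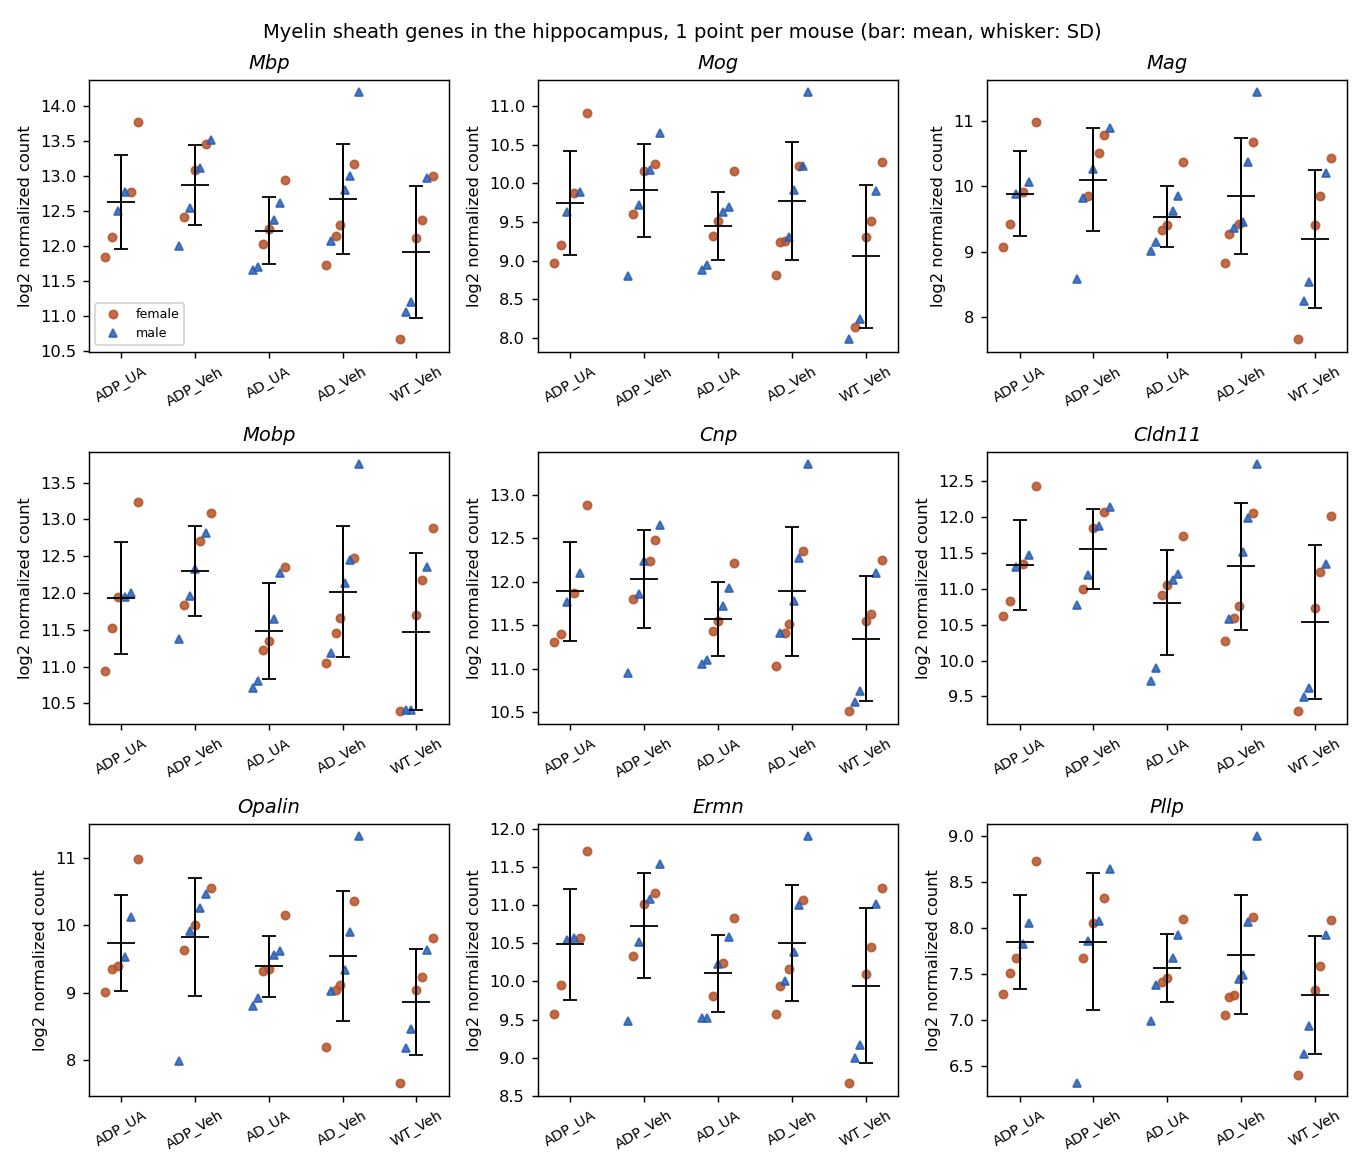
Level of each of the 9 genes (log2 normalized count, y axis, scaled per gene) in ADP_UA, ADP_Veh, AD_UA, AD_Veh and WT_Veh mice (x axis); 1 point per mouse, circles female and triangles male, bar the group mean and whisker the SD (n = 6, 7, 7, 8 and 7). All groups overlap in every panel, WT_Veh holds the lowest point of every panel but that of Pllp, and its highest point lies below the highest ADP_UA and AD_Veh points in each.

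The 3xTgAD genotype by itself was addressed by AD_Veh against WT_Veh. All 9 genes had a higher mean in AD_Veh mice, by a median of 0.67 and from 0.44 for Pllp to 0.79 for Cldn11 on the log2 scale, while the median over all 760 genes was 0.044. After adjustment over the 760 genes limma called 0 of the 9, where 0.132% of all genes were called. At an unadjusted p under 0.05 there was 1 member, Mbp, where 6.58% of all genes met that limit. Mbp averaged 12.68 ± 0.79 in AD_Veh mice (SD, n = 8) and 11.92 ± 0.94 in WT_Veh mice (SD, n = 7), a difference of 0.76 (SE 0.36, 95% interval 0.028 to 1.5, limma adjusted p = 0.588). The differences were 0.72 for Mog, 0.68 for Opalin, 0.67 for Mag, 0.56 for Ermn, 0.55 for Mobp and 0.55 for Cnp, with limma adjusted p of 0.588 to 0.625. Cldn11, Mbp and Mog were the 3 genes with the largest positive difference among the 760. By limma p they ranked 70, 42 and 52. They were also among the more variable genes, ranking 15, 27 and 30 by the SD with group and sex removed. More oligodendrocytes and more RNA per oligodendrocyte cannot be told apart in such bulk tissue, here or in any comparison below. The size moved with single mice. The count of members at an unadjusted p under 0.05 was 0 without WT_Veh 1, 2 or 6 or AD_Veh 2, 6, 7 or 8, 3 without WT_Veh 3 or AD_Veh 1, 4 or 5, 5 without WT_Veh 5 or AD_Veh 3 and 6 without WT_Veh 8, and that of all genes ran from 33 (without WT_Veh 6) to 114 (without WT_Veh 5), against 50 with all mice. The members' median was 0.42 without AD_Veh 2 and 0.41 without WT_Veh 6, and 0.42 without the 4 mice of high Adora2a.

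The transgenes together with the Polb allele were addressed by ADP_Veh against WT_Veh, which uses the same WT_Veh mice. All 9 genes had a higher mean in ADP_Veh mice, by a median of 0.86, against 0.088 over all genes. None of the 9 was called by limma (adjusted p of 0.180 to 0.225), nor any other gene (0%), and 6 of the 9 had an unadjusted p under 0.05 (Mbp, Mog, Mag, Cnp, Cldn11 and Opalin), where 25.8% of all genes did. Cldn11 averaged 11.56 ± 0.56 in ADP_Veh mice and 10.54 ± 1.07 in WT_Veh mice (SD, n = 7 each), a difference of 1.04 (SE 0.42, 95% interval 0.18 to 1.90, limma adjusted p = 0.180) or 2.06-fold. Mbp differed by 0.96 (SE 0.37) and Opalin by 0.97 (SE 0.41), while Mag was at 0.92, Mog at 0.86, Mobp at 0.84, Ermn at 0.79, Cnp at 0.69 and Pllp at 0.58. The difference lay above 0 for each gene in every alternative run. Of the genes met by the unadjusted limit 157 were higher and 39 lower, and 88 were higher and 133 lower after centring each mouse on its own median. Such centring brought the median of all genes to -0.056 and that of the members to 0.72.

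The call in that comparison changed with the weighting of the mice. With sample weights estimated by limma all 9 genes were called between ADP_Veh and WT_Veh (median 1.47), as were 441 of the 760 genes. Those weights were 0.43 for ADP_Veh 1, the lowest mouse of its group, and 3.11 and 2.90 for ADP_Veh 3 and ADP_Veh 4. In the WT_Veh group they were 3.14 and 3.04 for WT_Veh 1 and WT_Veh 2, which had low myelin genes, and 0.31 and 0.52 for WT_Veh 5 and WT_Veh 8, which had high ones. WT_Veh 6, the lowest mouse for most of the 9 genes, had 0.62. Among ways of leaving out 1 mouse 0 members were called in any, and the members' median ran from 0.67 (without WT_Veh 6 or WT_Veh 1) to 1.06 (without WT_Veh 8), with 1 member at an unadjusted p under 0.05 without WT_Veh 1 or WT_Veh 6, 2 without WT_Veh 2 or ADP_Veh 7, 3 without ADP_Veh 6, and 9 without WT_Veh 5, WT_Veh 8 or ADP_Veh 1. All genes with such a p numbered 81 without ADP_Veh 6 and 84 without WT_Veh 6, against 196 with all mice. They numbered 234 without ADP_Veh 1, 245 without WT_Veh 8 and 280 without WT_Veh 5. Without the 4 mice of high Adora2a, none of them in these groups, the median was 0.87 and 8 members had an unadjusted p under 0.05, with 0 called. Such a p was then met by 262 of the 760 genes.

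**Figure D3:**
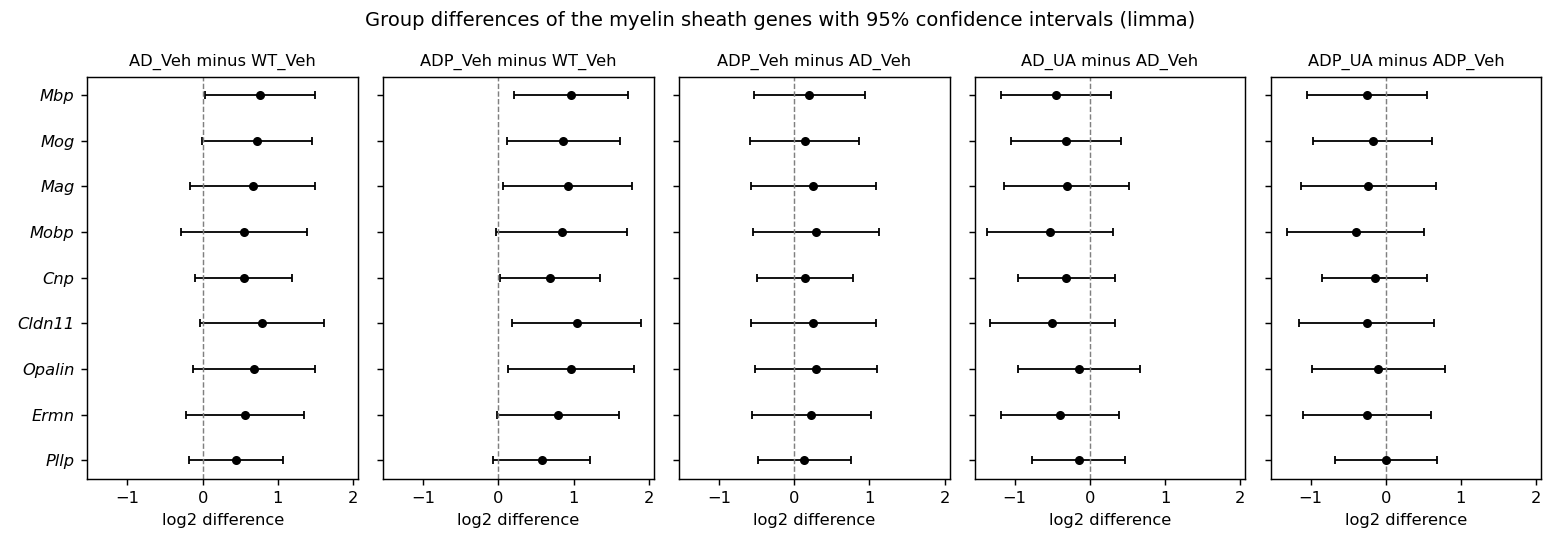
Differences between group means with sex in the model (log2, x axis) for the 9 genes (down) in 5 comparisons; points are limma estimates and whiskers 95% confidence intervals. The 9 estimates lie above 0 in both comparisons with WT_Veh and in ADP_Veh minus AD_Veh and below 0 in AD_UA minus AD_Veh, and intervals exclude 0 in 1 gene for AD_Veh minus WT_Veh and in 6 for ADP_Veh minus WT_Veh.

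The Polb allele within the transgenic background was addressed by ADP_Veh against AD_Veh. The 9 genes differed by a median of 0.23, from 0.14 for Pllp, Mog and Cnp to 0.29 for Mobp and Opalin, against 0.041 over all genes. By limma 0 of the 9 and 0% of all genes were called (members' adjusted p of 0.904 to 0.941), and 0 of the 9 had an unadjusted p under 0.05, a limit met by 4.34% of all genes. For Mbp the difference was 0.20 (95% interval -0.53 to 0.94), which spans both directions, while Mag was at 0.26, Cldn11 at 0.25 and Ermn at 0.23. Leaving out AD_Veh 1, AD_Veh 2, AD_Veh 3, AD_Veh 5, ADP_Veh 1, ADP_Veh 6 or ADP_Veh 7 moved the median by more than 1.5 times, between 0.10 (without AD_Veh 3 or ADP_Veh 7) and 0.45 (without AD_Veh 2), and it was 0.44 without the 4 mice of high Adora2a. With sample weights 8 of the 9 were called (median 0.78), as were 209 genes in all. AD_Veh 2 had the lowest weight of all mice (0.11).

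Urolithin A in 3xTgAD mice was addressed by AD_UA against AD_Veh, which shares the AD_Veh mice with the comparisons above. All 9 genes had a lower mean in AD_UA mice, by a median of -0.32, from -0.53 for Mobp and -0.50 for Cldn11 to -0.15 for Opalin and Pllp, against -0.051 over all genes. Mbp averaged 12.23 ± 0.47 in AD_UA mice (SD, n = 7) and 12.68 ± 0.79 in AD_Veh mice (SD, n = 8), a difference of -0.45 (SE 0.36, 95% interval -1.19 to 0.28, limma adjusted p = 0.678). Calls by limma were 0 of the 9 and 0% of all genes (members' adjusted p of 0.664 to 0.919), and 0 of the 9 had an unadjusted p under 0.05, a limit met by 9.34% of all genes. Between 4 and 6 of the 7 AD_UA mice lay below the AD_Veh mean, depending on the gene. The direction rested on few mice. Without AD_Veh 2 the median was -0.10, with Opalin at 0.13 and Pllp at 0.043, and without the 4 mice of high Adora2a it was 0.088 with 7 of the 9 genes higher in AD_UA. With sample weights all 9 were higher in AD_UA (median 0.22, 0 called). Those weights were lowest of all mice for AD_Veh 2 (0.11) and highest for AD_UA 2 (4.97), with 0.38 for AD_UA 3 and 0.45 for AD_UA 8. The weighted run is therefore not separate from leaving out AD_Veh 2.

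In mice with the Polb allele, ADP_UA against ADP_Veh gave a median of -0.23 over the 9 genes and -0.012 over all genes. Mobp was at -0.40 (SE 0.45), Cldn11 at -0.26, Ermn and Mbp at -0.25, Mag at -0.23, Mog at -0.17, Cnp at -0.15, Opalin at -0.10 and Pllp at 0.0018. Limma called 0 of the 9 and 0% of all genes (members' adjusted p of 0.953 to 1.0), and 0 of the 9 had an unadjusted p under 0.05, as against 5.66% of all genes. Mbp averaged 12.64 ± 0.67 in ADP_UA mice (SD, n = 6) and 12.88 ± 0.57 in ADP_Veh mice (SD, n = 7), with a 95% interval of -1.04 to 0.55 for the difference. Leaving out ADP_UA 3, ADP_UA 5, ADP_UA 6, ADP_Veh 1, ADP_Veh 6 or ADP_Veh 7 moved the median by more than 1.5 times, between -0.44 (without ADP_UA 5) and -0.070 (without ADP_UA 3), and it was -0.10 without the 4 mice of high Adora2a. The highest ADP_UA mouse, ADP_UA 5, averaged 11.74 over the 9 genes, above the highest ADP_Veh mouse at 11.48.

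Whether treatment acted differently with and without the Polb allele was tested as an interaction. Its median over the 9 genes was 0.15, against 0.051 over all genes. Cldn11 was at 0.24, Mbp at 0.21, Cnp at 0.17, Pllp, Ermn and Mog at 0.15, Mobp at 0.13, Mag at 0.081 and Opalin at 0.050, with an SE of 0.45 (Pllp) to 0.61 (Mobp). Limma called 0 of the 9 and 0% of all genes (members' adjusted p = 0.994), and 0 of the 9 had an unadjusted p under 0.05, which 3.82% of all genes had. The sign was not stable. The median was below 0 without AD_Veh 2 (-0.092), ADP_UA 5 (-0.070) or ADP_Veh 1 (-0.020), it reached 0.30 at the highest (without ADP_UA 3), and it was -0.18 without the 4 mice of high Adora2a and -0.62 with sample weights. The 4 transgenic groups averaged together, treated mice included, differed from the same WT_Veh mice by a median of 0.66 (all genes 0.050). Opalin was at 0.76, Cldn11 at 0.73, Mbp at 0.69, Mog at 0.67, Mag at 0.66, Ermn at 0.52, Cnp at 0.50, Pllp at 0.47 and Mobp at 0.47. Here limma called 0 of the 9 and 0.132% of all genes (members' adjusted p of 0.365 to 0.478), and 4 of the 9 had an unadjusted p under 0.05 (Mbp, Mog, Cldn11 and Opalin) beside 12.2% of all genes. That count of 4 was 0 without WT_Veh 1, WT_Veh 2 or WT_Veh 6, 7 without ADP_Veh 1 and 8 without WT_Veh 5 or WT_Veh 8, and all genes with such a p numbered from 32 (without WT_Veh 6) to 187 (without WT_Veh 5), against 93 with all mice. The members' median was 0.40 without WT_Veh 6, and all 9 were called with sample weights (median 1.01). Without the 4 mice of high Adora2a it was 0.67, with 7 members at an unadjusted p under 0.05 and 0 called. A test for any difference among the 5 groups called 0 of the 9 and 0.132% of all genes (members' adjusted p of 0.395 for Mbp to 0.524 for Pllp), with 0 of the 9 and 13.6% of all genes at an unadjusted p under 0.05, and with sample weights it called all 9. Without the 4 mice it called 0 of the 9, with 0 at an unadjusted p under 0.05.

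Sex was tested in the same model. The difference of females from males had a median of 0.015 over the 9 genes, against 0.036 over all genes, and a median of -0.031 after centring each mouse on its own median. Cldn11 was at 0.12, Mobp at 0.11, Mag at 0.068, Mog at 0.047, Ermn at 0.015, Cnp at 0.014, Opalin at 0.0055, Mbp at 0.0041 and Pllp at -0.028. Limma called 0 of the 9 and 0% of all genes, and 0 of the 9 had an unadjusted p under 0.05 as against 8.55% of all genes. For Mbp the 95% interval was -0.48 to 0.49, and leaving out single mice moved the members' median between -0.049 and 0.13. Without the 4 mice of high Adora2a it was 0.075, with 0 called and 0 at an unadjusted p under 0.05. A test of whether group differences depend on sex also called 0 of the 9 and 0% of all genes (members' adjusted p = 0.999), with 0 of the 9 and 1.71% of all genes at an unadjusted p under 0.05, and it also called 0 of the 9 without the 4 mice. With sample weights it called 3 of the 9, in a model where the estimate of the weights stopped before it converged.

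Most of the variation in these genes lay between mice of the same group. With group and sex removed the SD ran from 0.61 for Pllp and 0.63 for Cnp through 0.72 for Mog and Mbp, 0.78 for Ermn, 0.80 for Opalin and 0.82 for Mag and Cldn11 to 0.83 for Mobp. The median SD of all 760 genes was 0.27, and the 9 ranked between 13 and 64 from the most variable. Group membership took up 12.8% (Pllp) to 21.9% (Mbp) of the variance, close to the median of 16.5% over all genes. For 5 oligodendrocyte transcription factors the median SD was 0.67, for 24 other oligodendrocyte genes 0.60, for 8 microglial genes 0.68 and for 8 neuronal genes 0.31. The part of the tissue taken, or of the state of the cells, in this spread was not tested.

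**Figure D4:**
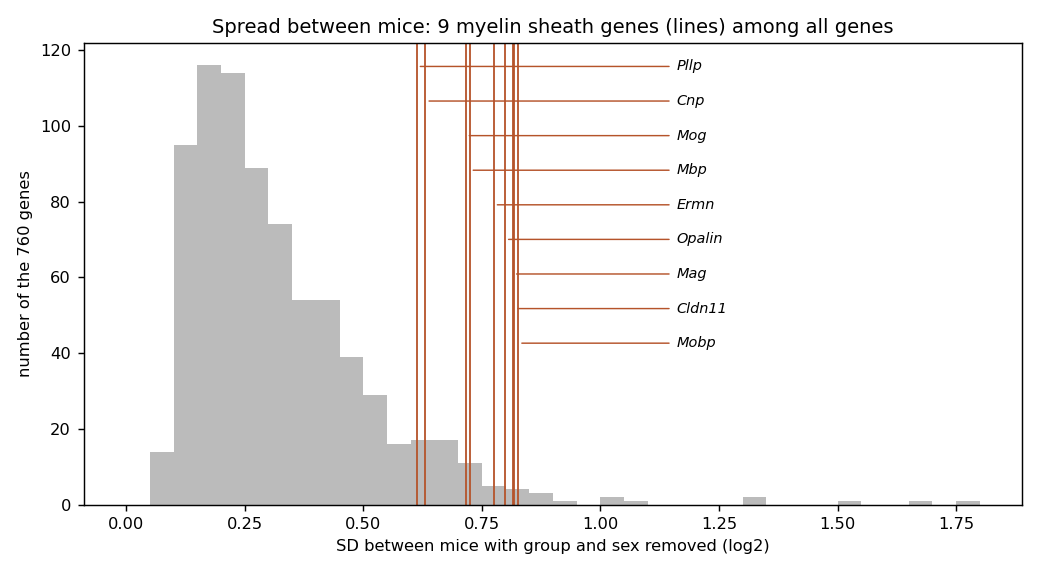
Histogram of the SD between mice with group and sex removed (log2, x axis) for the 760 genes (count, y axis), with a line for each of the 9 myelin genes. The lines lie between 0.61 and 0.83, in the upper tail of a distribution with a median of 0.27.

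The 9 genes moved together from mouse to mouse. Over the 36 pairs of members, Pearson r across the 35 mice ran from 0.879 (Mobp and Opalin) to 0.986 (Mog and Cnp), with a median of 0.960, and Spearman rho from 0.876 to 0.986. For all 36 the permutation p was 1e-05, the smallest that 100000 draws give, and adjustment over the 36 pairs left it there. The draws shuffled levels across groups, and the 9 genes were chosen together as genes of the myelin sheath. No correlation at all was therefore unlikely beforehand, and this p adds little to r. Without the 2 mice farthest from the median, r was 0.839 to 0.987. With group and sex removed it was 0.880 to 0.987, and 0.864 to 0.986 when the 4 mice of high Adora2a were also left out. Inside the groups the lowest pair had r of 0.902 in ADP_UA, 0.828 in ADP_Veh, 0.831 in AD_UA, 0.904 in AD_Veh and 0.950 in WT_Veh mice. Pairs share each mouse's sampled tissue and its normalization factor, and the median of all genes also differed between mice, as given above. Correlation was also common beyond the members. With group and sex removed, 292 of the 751 other genes had r over 0.5 with the members' mean.

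Departures of 1 gene from the other 8 were small and fell mostly on Pllp, Opalin, Cldn11 and Mobp. The offset was each gene minus the mean of the other 8 in the same mouse, centred over all mice. Its variance, relative to the gene's own variance, was 2.26% for Ermn, 2.77% for Mog, 2.88% for Mbp, 4.2% for Mag and 4.72% for Cnp, but 8.39% for Mobp, 8.70% for Cldn11, 10.9% for Opalin and 19.5% for Pllp. The slope of a gene on the mean of the other 8 was 0.78 for Pllp and 0.84 for Cnp, and reached 1.11 for Mag and for Mobp. A slope away from 1 enters the offset, so the value for Pllp partly holds a smaller swing in the shared pattern. In ADP_Veh 1 the offset was -0.70 for Opalin, -0.54 for Pllp and -0.32 for Mag, and 0.58 for Cldn11, 0.44 for Mobp and 0.43 for Mbp. In AD_UA 3, a mouse of high Adora2a, Cldn11 was at -0.72 and Pllp at 0.56. By group the mean offset of Mobp was -0.098 ± 0.18 in ADP_UA mice (SD, n = 6), 0.11 ± 0.24 in ADP_Veh (n = 7), -0.18 ± 0.23 in AD_UA (n = 7), 0.029 ± 0.21 in AD_Veh (n = 8) and 0.13 ± 0.24 in WT_Veh mice (n = 7). The means of AD_UA and WT_Veh mice were farthest apart, the ranges of all 5 groups overlapped, and no test was run on them. Mobp was not alone in such a spread. Mean offsets of Pllp ran from -0.18 in ADP_Veh to 0.13 in AD_UA mice, and those of Opalin from -0.14 in WT_Veh to 0.14 in AD_UA mice.

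**Figure D5:**
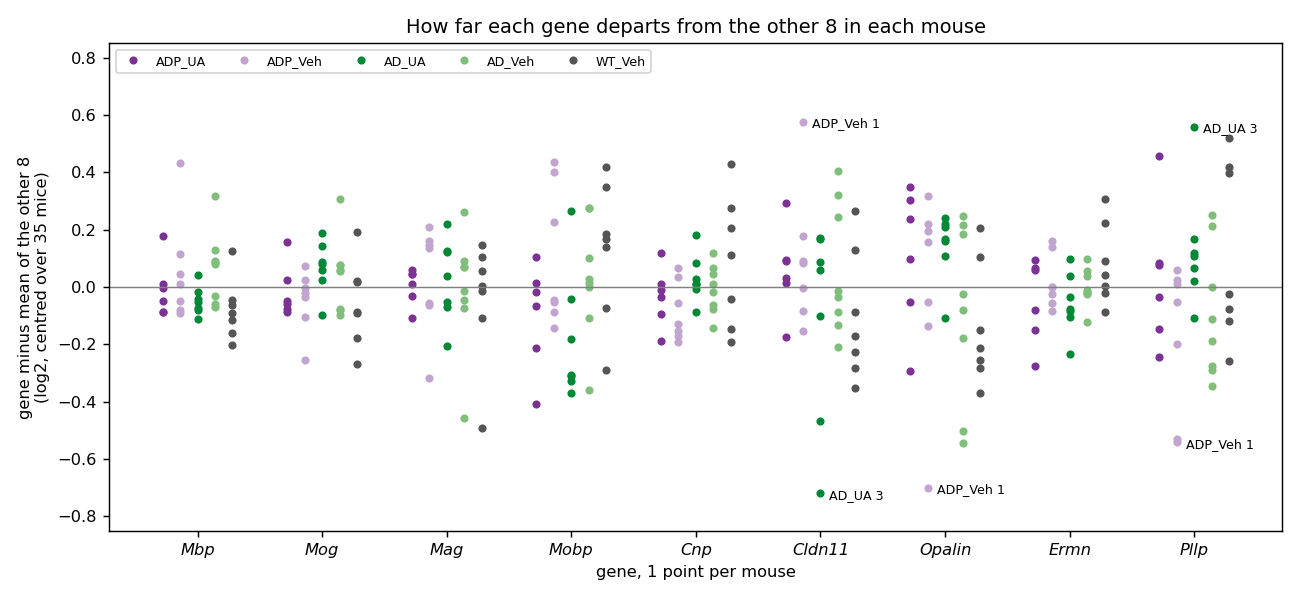
Offset of each gene from the mean of the other 8 in the same mouse (log2, centred over 35 mice, y axis) for the 9 genes (x axis), 1 point per mouse coloured by group. Most points lie near 0, and the widest are Cldn11 in AD_UA 3 (-0.72) and Opalin in ADP_Veh 1 (-0.70).

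Among the 751 other genes, those most like the 9 were ranked by Pearson r with the members' mean over the 35 mice, with group and sex removed. Among the 8 highest were Evi2a (0.987), Gltp, a glycolipid transfer protein (0.982), Myrf, the membrane-anchored transcription factor of myelination (0.980), Tmbim1 (0.978), Prr18 (0.974), Fa2h, the fatty acid hydroxylase of myelin lipids (0.972), and Gjb1, the gap junction protein connexin 32 (0.970). The 5 lowest were Syngr3, a synaptic vesicle protein (-0.858), Sestd1 (-0.848), Rtn1 (-0.831), 6430548M08Rik (-0.826) and Napb, of the vesicle fusion machinery (-0.826). In all 53 of the 751 had r over 0.9, 292 had r over 0.5 and 100 had r under -0.5. By list, r ran from 0.63 to 0.98 for the 5 oligodendrocyte transcription factors, from 0.71 to 0.99 for the 24 other oligodendrocyte genes, from 0.51 to 0.79 for 8 microglial genes, from 0.079 to 0.28 for 4 endothelial genes and from -0.79 to -0.44 for the 8 neuronal genes. Without the 4 mice of high Adora2a the 8 highest genes kept r between 0.966 and 0.985.

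Other oligodendrocyte genes were read in the same comparisons, with all mice only. Of all 760 genes, 462 were higher in AD_Veh and 467 in ADP_Veh than in WT_Veh mice. Lower genes numbered 489 in AD_UA against AD_Veh and 406 in ADP_UA against ADP_Veh. Of 11 transcription factors listed 5 were measured (Nkx6-2, Sox8, Myrf, St18 and Zfp536), and of 64 other oligodendrocyte genes 24 were, and limma called 0 of these 29 in each comparison. Against WT_Veh, 5 of 5 factors and 23 of 24 others were higher in AD_Veh mice, with medians of 0.63 and 0.45 and the smallest p for Nkx6-2 (0.66, SE 0.33), Sox8 (0.32), Myrf (0.65), Bin1 (0.25, SE 0.09), Ndrg1 (0.49) and Sirt2 (0.29). In ADP_Veh mice 5 of 5 and 24 of 24 were higher, with medians of 0.59 and 0.63, and those with the smallest p were Nkx6-2 (0.95, SE 0.35), Zfp536 (0.48), Myrf (0.89), Bin1 (0.30, SE 0.10), Tmem63a (0.94) and Dock10 (0.67). At an unadjusted p under 0.05 there were 0 of 5 and 1 of 24 in AD_Veh against WT_Veh (6.58% of all genes) and 3 of 5 and 12 of 24 in ADP_Veh against WT_Veh (25.8%). There were 2 of 5 and 2 of 24 in AD_UA against AD_Veh (9.34%) and 0 of either list in ADP_Veh against AD_Veh (4.34%) and in ADP_UA against ADP_Veh (5.66%). In the transgenic groups against WT_Veh there were 1 of 5 and 5 of 24 (12.2%). ADP_Veh against AD_Veh gave medians of 0.23 and 0.14, with Zfp536 at 0.23, Nkx6-2 at 0.28, Myrf at 0.24, Klk6 at 0.79, Tmem63a at 0.37 and Enpp2, the gene of autotaxin, at 1.54 (SE 0.83, limma adjusted p = 0.873). In AD_UA against AD_Veh 5 of 5 factors and 22 of 24 others were lower (medians -0.35 and -0.25), with Sox8 at -0.35 (SE 0.16), St18 at -0.81 (SE 0.38), Myrf at -0.43, Bin1 at -0.19, Tppp3 at -0.61 and Dock10 at -0.57 (SE 0.24), each with a limma adjusted p of 0.472 or more. In ADP_UA against ADP_Veh 5 of 5 and 21 of 24 were lower (medians -0.24 and -0.12), with Zfp536 at -0.24, Myrf at -0.37, St18 at -0.33, Bin1 at -0.10, Klk6 at -0.66 and Dock10 at -0.51 (SE 0.26).

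Markers of other cell types were also read, with all mice only. The 8 of 22 neuronal markers measured mostly had differences opposite in sign to the myelin genes, with 7 of 8 lower in AD_Veh than in WT_Veh mice (median -0.18), 8 of 8 lower in ADP_Veh than in WT_Veh mice (-0.14), 8 of 8 higher in AD_UA than in AD_Veh mice (0.24) and 8 of 8 higher in ADP_UA than in ADP_Veh mice (0.16), and 0 were called. Their summed level ran from 14.79 to 15.46 in ADP_UA, 14.69 to 15.25 in ADP_Veh, 15.00 to 15.44 in AD_UA, 14.28 to 15.27 in AD_Veh and 14.72 to 15.27 in WT_Veh mice. Of all 760 genes, 298, 293, 271 and 354 had the same direction in these 4 comparisons, in that order. An unadjusted p under 0.05 was met by 0, 1, 1 and 0 of the 8 (6.58%, 25.8%, 9.34% and 5.66% of all genes). Each varied inversely with the members across mice (r of -0.79 to -0.44), so the 8 are not separate observations. The 8 of 16 microglial markers measured (C1qa, C1qb, C1qc, Trem2, Tyrobp, Ctss, Laptm5 and Cd74) mostly had differences of the same sign as the myelin genes, with 7 of 8 higher in AD_Veh than in WT_Veh mice (median 0.37), 7 of 8 higher in ADP_Veh than in WT_Veh mice (0.77), 7 of 8 lower in AD_UA than in AD_Veh mice (-0.15) and 6 of 8 lower in ADP_UA than in ADP_Veh mice (-0.23), again with 0 called. Their summed level ran from 12.40 to 13.65 in ADP_UA, 11.67 to 14.39 in ADP_Veh, 11.72 to 13.59 in AD_UA, 11.99 to 14.22 in AD_Veh and 11.70 to 13.45 in WT_Veh mice. Of all 760 genes, 462 and 467 were higher in the comparisons with WT_Veh, and 489 and 406 were lower in those of treatment. An unadjusted p under 0.05 was met by 0 of the 8 microglial genes in AD_Veh (6.58% of all genes) and 6 in ADP_Veh (25.8%) against WT_Veh. It was met by 1 in AD_UA against AD_Veh (9.34%) and 0 in ADP_UA against ADP_Veh (5.66%). All 8 were higher in females than in males (median 0.64), 7 with such a p (8.55%), and the summed levels were not adjusted for sex. Of 12 astrocyte markers 2 were measured (Gja1 and Sox9), with medians of 0.12 in AD_Veh and 0.26 in ADP_Veh against WT_Veh, and of 14 endothelial markers 4 were (Pecam1, Cldn5, Flt1 and Esam), with medians of 0.095 and 0.38. In AD_UA against AD_Veh both astrocyte genes were lower (Gja1 at -0.35, SE 0.096, limma adjusted p = 0.393, and Sox9 at -0.026), and endothelial genes had a median of -0.0077. In ADP_UA against ADP_Veh 4 of 4 endothelial genes were lower (median -0.26) and the astrocyte median was 0.012. In these 2 lists limma called 0 in each comparison. The part of these cell types, or of the tissue taken, in the myelin differences was not tested.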

How the data were processed

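Total RNA of hippocampal tissue was measured on the NanoString nCounter in 35 mice, each a separate sample. The deposited values are log2 normalized barcode counts made by the authors on the Rosalind platform, per the series' design text; the labels and files used name neither the reference for normalization nor the treatment of background. Depth per mouse is therefore unknown, and no interval on counts is given. No batch was named in the labels used, and 0 columns stayed unmapped. No 2 mice shared more than 4.21% of values (595 pairs, tolerance 0.005).

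Groups were taken from the labels. A linear model with group and sex was fitted to all 760 genes and 35 mice with limma 3.58.1 (R 4.3.3), as coded contrasts with empirical Bayes moderation, and p-values were adjusted by Benjamini-Hochberg over the 760 genes at 0.05. The procedure was tested on simulated data in which each gene was drawn independently, so without the correlation between genes found here. Correlations used 100000 permutations (Python 3.11.15, scipy 1.17.1, numpy 2.4.6, pandas 2.3.3). Promoters were matched by symbol to RefSeq tables of GRCm38.p6, where 750 of 760 symbols were found.

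The 9 members and the marker lists were chosen with earlier results of these data known. All members are named in each comparison that gives a difference, with up to 3 genes of smallest p per oligodendrocyte list where 2 groups are compared, and the 8 most and 5 least similar genes, except for an item that is not reported here. Alternatives were median centring, quantile normalization, no sex term, trended and robust moderation, sample weights, only the groups compared, removal of the dimmest 25% of genes, replicate block, and each mouse left out. Leaving out the 4 mice with Adora2a above 6 was added after seeing the data.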

Additional observations from a re-analysis of the deposited data

Results flagged for a closer look

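Within groups of 6 to 8 mice, 5 of the 55 sets of values examined held a mouse whose gap to its nearest neighbour passed Dixon's 95% limit, and chance gives such a gap in about 1 set in 20. Of the 45 sets from the 9 myelin genes, 2 held one, both in mouse ADP_Veh 1. Opalin was 7.99 there, with the next ADP_Veh mouse at 9.63, and Pllp was 6.31, with the next at 7.68. The other 7 genes of that mouse passed no limit, and its Cldn11 and Mobp lay above what the other 8 genes would give. In the striatal genes Adora2a and Pde1b, AD_Veh 2 stood at 9.85 and 11.27, with the next AD_Veh mouse at 4.23 and 8.53. Adora2a was 0.98 in ADP_Veh 2, the lowest value of the table, with the next ADP_Veh mouse at 3.20. Both values are near the floor of the table. With the treatment of background unknown, a log2 gap at that level says little.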

How the results depend on the processing

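Limma called 0 of the 9 genes in each comparison under the alternatives tried, except with sample weights, where it called 9 in ADP_Veh against WT_Veh, 8 in ADP_Veh against AD_Veh, 9 in the transgenic groups against WT_Veh, 9 among the 5 groups and 3 in group by sex. The cause was not tested. Of the single-gene differences under alternatives other than leaving out 1 mouse, 531 kept their direction and side of the threshold, 26 became called and 55 turned round. With 1 mouse left out 1416 kept both and 114 turned round. The depth of these values is unknown, and 6 to 8 mice per group limit the precision.

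In AD_UA against AD_Veh all 9 turned round with sample weights (Mbp 0.093, Mog 0.25, Mag 0.22, Mobp 0.11, Cnp 0.18, Cldn11 0.25, Opalin 0.40, Ermn 0.11, Pllp 0.25), as did 7 without the 4 mice of high Adora2a (Mog 0.088, Mag 0.087, Cnp 0.088, Cldn11 0.10, Opalin 0.32, Ermn 0.033, Pllp 0.18). The interaction of Urolithin A and Polb turned round for all 9 with sample weights (Mbp -0.53, Mog -0.62, Mag -0.69, Mobp -0.72, Cnp -0.54, Cldn11 -0.71, Opalin -0.90, Ermn -0.58, Pllp -0.55) and without those 4 mice (Mbp -0.14, Mog -0.16, Mag -0.23, Mobp -0.31, Cnp -0.15, Cldn11 -0.20, Opalin -0.36, Ermn -0.18, Pllp -0.082). Pllp in ADP_UA against ADP_Veh, near 0, was -0.29 with sample weights, -0.0048 without the sex term and -0.030 with only those groups in the model, and in ADP_Veh against AD_Veh it was -0.037 after quantile normalization. In females against males Pllp was 0.061 with sample weights and 0.036 without the 4 mice. That comparison also turned round after quantile normalization (Mbp -0.052, Cnp -0.044, Opalin -0.034, Ermn -0.046) and after median centring (Mbp -0.041, Cnp -0.031, Opalin -0.040, Ermn -0.031).

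With 1 mouse left out, AD_UA against AD_Veh ran from -0.34 to 0.13 for Opalin and -0.25 to 0.043 for Pllp, above 0 without AD_Veh 2. ADP_UA against ADP_Veh ran from -0.38 to 0.043 for Opalin and -0.24 to 0.12 for Pllp. The interaction ran from -0.051 to 0.35 for Mbp, -0.10 to 0.30 for Mog, -0.19 to 0.24 for Mag, -0.17 to 0.32 for Mobp, -0.080 to 0.30 for Cnp, -0.0075 to 0.42 for Cldn11, -0.25 to 0.22 for Opalin, -0.092 to 0.32 for Ermn and -0.083 to 0.27 for Pllp, below 0 for all 9 without AD_Veh 2. Females against males ran from -0.066 to 0.11 for Mbp, -0.039 to 0.15 for Mog, -0.023 to 0.18 for Mag, -0.051 to 0.12 for Cnp, -0.11 to 0.13 for Opalin, -0.063 to 0.11 for Ermn and -0.12 to 0.061 for Pllp.

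No pairing of mice by replicate number was named in the labels used, and sample titles number some mice otherwise. Over 62 pairs of mice of different groups with the same number, the deviations had a median r of -0.12 (-0.74 to 0.76), and 20 pairs were over 0.1. Over 427 pairs with different numbers the median r was 0.035 (-0.77 to 0.86), and 196 pairs were over 0.1. Among mice of other groups, 7 of 35 mice correlated best with 1 of their own number. With the number as a replicate block 0 members were called in any comparison, the members' median in ADP_Veh against WT_Veh was 0.88, and 131 in place of 196 genes had an unadjusted p under 0.05. Females against males turned round for 7 genes under the replicate block (Mbp -0.20, Mog -0.14, Mag -0.18, Mobp -0.030, Cnp -0.14, Opalin -0.18, Ermn -0.21).

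Among all 760 genes, sample weights gave 5 calls in AD_Veh against WT_Veh, 441 in ADP_Veh against WT_Veh, 209 in ADP_Veh against AD_Veh, 2 in AD_UA against AD_Veh, 20 in ADP_UA against ADP_Veh, 355 in the transgenic groups against WT_Veh, 21 in females against males, 463 among the 5 groups and 42 in group by sex, where limma without weights called 1 or 0. Scaling moved the split of genes at an unadjusted p under 0.05. It was 33 higher and 17 lower in AD_Veh against WT_Veh but 31 and 32 after median centring and 29 and 34 after quantile normalization. It was 24 and 9 in ADP_Veh against AD_Veh but 17 and 22, and 15 and 35. It was 70 and 23 in the transgenic groups against WT_Veh but 43 and 63, and 35 and 58. It was 18 and 11 for the interaction but 8 and 10, and 10 and 16. In females against males it was 60 and 5 but 40 and 24, and 39 and 33. Leaving out 1 mouse gave between 33 and 114 genes at an unadjusted p under 0.05 in AD_Veh against WT_Veh, 81 and 280 in ADP_Veh against WT_Veh, 15 and 114 in ADP_Veh against AD_Veh, 32 and 108 in AD_UA against AD_Veh, 28 and 59 in ADP_UA against ADP_Veh, 19 and 54 in the interaction, 32 and 187 in the transgenic groups, 53 and 85 by sex, 64 and 161 among 5 groups and 7 and 36 in group by sex. Other settings also moved these counts by more than 1.5 times. Sample weights gave 166 for 50 in AD_Veh against WT_Veh, 476 for 196 in ADP_Veh against WT_Veh, 313 for 33 in ADP_Veh against AD_Veh, 117 for 71 in AD_UA against AD_Veh, 162 for 43 in ADP_UA against ADP_Veh, 176 for 29 in the interaction, 410 for 93 in the transgenic groups, 131 for 65 by sex, 504 for 103 among 5 groups and 204 for 13 in group by sex. Without the 4 mice they were 122, 23, 73, 169, 165 and 8 in ADP_Veh against AD_Veh, AD_UA against AD_Veh, ADP_UA against ADP_Veh, the transgenic groups, the 5 groups and group by sex. The replicate block gave 16 in ADP_Veh against AD_Veh, 35 by sex, 57 among 5 groups and 7 in group by sex. Removing dim genes gave 18, 41 and 3 in ADP_Veh against AD_Veh, by sex and in group by sex. Median centring gave 18 in the interaction and 23 in group by sex, quantile normalization 50 in ADP_Veh against AD_Veh, and fitting only the groups compared 47 in AD_UA against AD_Veh. The members' medians stayed above those of all genes against WT_Veh, at 0.60 in AD_Veh and 0.72 in ADP_Veh after median centring and at 0.60 and 0.82 after quantile normalization.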
